A study of Mus musculus with 4 samples.

Results

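The genes of mitochondrial ribosomal proteins were examined in quadriceps muscle of Lin28a transgenic and wild-type mice. They were taken as every gene in the table of processed values whose symbol begins with Mrpl (large subunit) or Mrps (small subunit) followed by a number. This gave 72 of 17904 genes, 44 named for the large and 28 for the small subunit. The samples were 2 quadriceps of male mice labelled Lin28A Tg and 2 of males labelled WT, all of the CD-1 strain and 5 weeks old, and 1 Illumina Ref-8 bead array was read for each. Neither the promoter driving the transgene nor the source of each replicate is stated in the labels. The p-values therefore cover the spread between these 4 samples alone, which may be technical, and precision is limited by so few arrays. Values are linear fluorescence intensities that the authors had normalized between arrays without subtracting background, and log2 fold changes are transgenic minus wild type.

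Mitochondria translate their own small genome on a ribosome of their own. Its RNAs are made inside the organelle, whereas its proteins are encoded in the nucleus, made in the cytosol and imported. All of its known products in mammals are core subunits of the respiratory chain and ATP synthase, so muscle, which relies on oxidative phosphorylation, depends on this ribosome. Some of its proteins descend from those of bacterial ribosomes and others are found in mitochondria only. Lin28a, the transgene, encodes an RNA-binding protein that blocks maturation of the let-7 microRNAs and also binds messenger RNAs.

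Of 17904 genes, 7912 were tested because they exceeded the background level of 90.0 on 2 or more arrays, 65 of them mitochondrial ribosomal protein genes, and each of these 65 exceeded it on all 4 arrays. The muscle markers were bright, with Ckm, the muscle creatine kinase, at 19190 to 21791 on the 4 arrays. The Lin28a probe lay below background on all 4 arrays, at 86.4 and 88.0 in transgenic and 82.9 and 82.6 in wild-type muscle, so the labels are not checked by it. Wild-type replicate 1 stood apart in liver transcripts, with a summed intensity of 21955 over 12 hepatocyte markers against 1070 to 1199 on the other arrays. Alb (77.7), Fgb (83.6) and Serpina1a (94.1) read near background on that array, whereas the rest of the list was far higher there. Wild-type replicate 2 stood apart in slow-fibre transcripts, at 9441 over 9 markers against 1531 to 3853.

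Transgenic muscle had slightly lower intensities of most mitochondrial ribosomal protein genes. Of the 65 tested, 49 had a negative log2 fold change, as did 46.6% of all genes tested, and 16 a positive one, as did 53.4%. The median log2 fold change was -0.11, or 7.32% below wild type, against 0.01 over all genes tested. For 31 members both transgenic arrays lay below both wild-type arrays, a pattern shown by 16.8% of all genes tested. For 7 members the 2 transgenic values were the 2 highest, against 21.6% of all genes. In whole muscle, fewer cells of a type and less RNA per cell cannot be told apart.

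No member passed limma's test at an adjusted p of 0.05. The members' adjusted p ran from 0.482 to 0.999, and 0 of the 7912 genes passed. At an unadjusted p under 0.05, 19 members were lower, against 3.8% of all genes, and 3 were higher, against 5.04%. The number lower moved with the processing. It was 7 (3.15% of all genes) after normexp background correction with an offset of 16, and 8 (3.34%) with a trended, robust variance prior. A fit with 1 array left out keeps a single array in a group, so its counts at that p are not given. The median log2 fold change was -0.10 to -0.15 with any single array left out. Over all 72 genes in the table, dim ones included, 52 were negative (48.4% of 17904 genes), 32 lay lower without overlap (16.6%) and 8 higher (18.8%). At an unadjusted p under 0.05, 23 of the 72 were lower (2.85% of all genes) and 3 higher (3.61%).

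**Figure D1:**
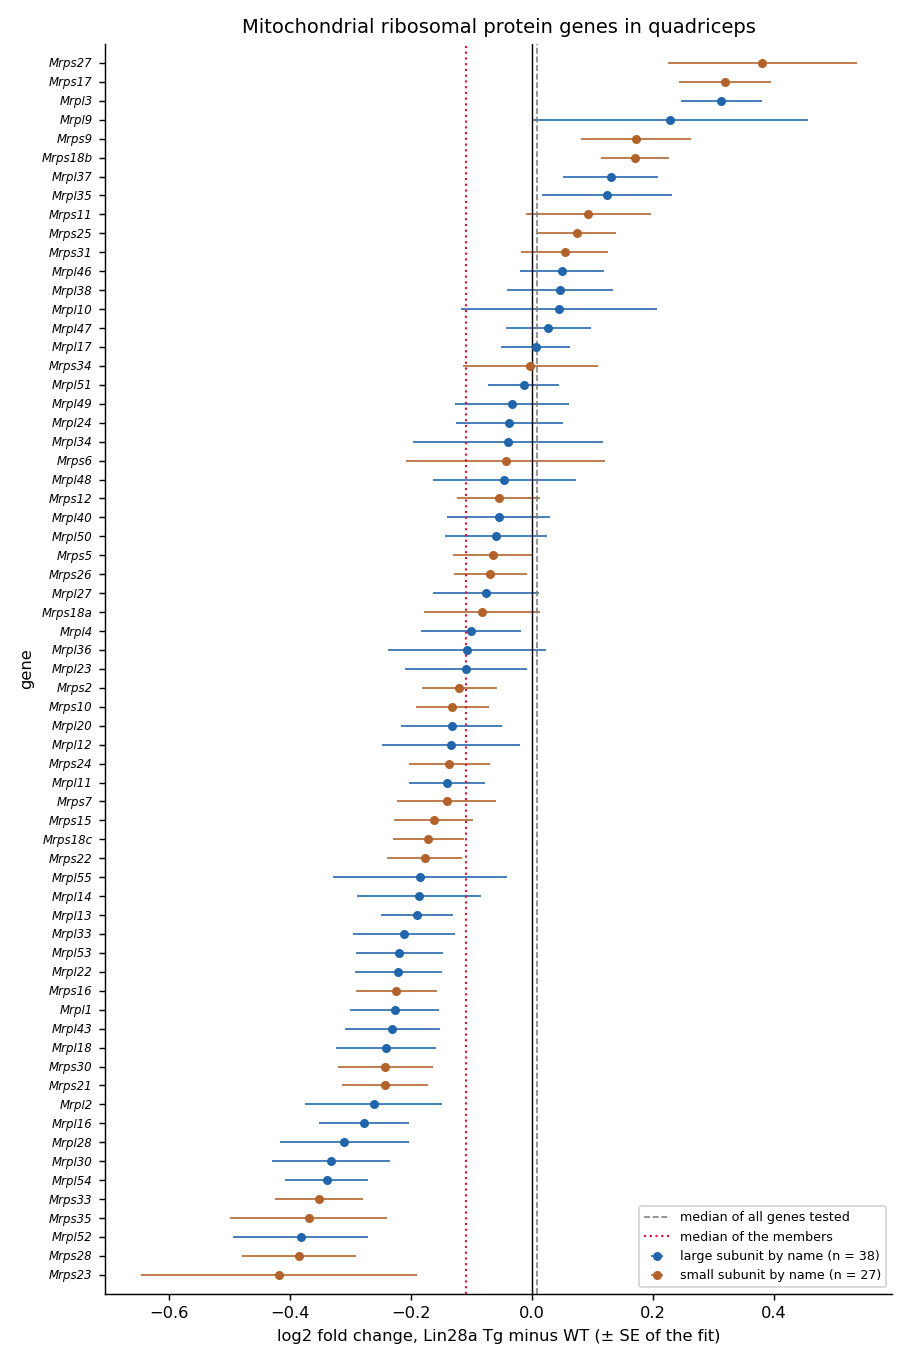
Log2 fold change (horizontal axis, transgenic minus wild type, bars are the standard error of the limma fit, n = 2 arrays per group) of the 65 mitochondrial ribosomal protein genes tested, ordered by value and coloured by the subunit in the symbol. Of the 65 points, 49 lie left of 0, and the dotted line marks their median of -0.11 beside the dashed line of all genes tested at 0.01.

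The differences were small for each gene. Of the 65 members, 34 differed from wild type by less than 10%, and the lowest and highest stood at -25.2% (Mrps23) and 30.2% (Mrps27). A fold of 1.2 was passed by 9 members in the lower direction, against 4.06% of all genes, and by 3 in the higher direction, against 4.64%. The median standard error of a member's log2 fold change was 0.08. Because background was left in the values, these folds are understated for dim genes.

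Several proteins that are found in mitochondrial ribosomes and have no bacterial counterpart were among those with the smallest p. Mrpl54 encodes such a protein of the large subunit and read 1058 and 977 in transgenic and 1299 and 1274 in wild-type muscle. The groups did not overlap, and the log2 fold change was -0.34 (SE 0.07, limma adjusted p = 0.482). Mrps33, of the small subunit, read 1108 and 1176 against 1401 and 1514, again without overlap, at -0.35 (SE 0.07, adjusted p = 0.482). Mrpl52, of the large subunit, read 144 and 121 against 164 and 180, at -0.38 (SE 0.11). With normexp at an offset of 16 the difference of Mrpl52, a dim gene, was -0.65. Mrps35, of the small subunit, read 194 and 233 against 296 and 255, at -0.37. Without transgenic replicate 1 the value for Mrps35 was -0.24. Mrpl53, a bright member of the large subunit, read 2689 and 2771 against 3038 and 3325, at -0.22, and Mrpl43 read 341 and 371 against 434 and 402, at -0.23. Mrps30 carries a small-subunit name, but its protein lies in the large subunit of the mammalian ribosome. It read 547 and 557 against 692 and 618, at -0.24.

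Members descended from bacterial ribosomal proteins lay lower as well. Mrps28, whose protein is the mitochondrial form of bacterial S1, read 674 and 742 in transgenic and 982 and 868 in wild-type muscle. Its groups did not overlap and the log2 fold change was -0.38 (SE 0.09, limma adjusted p = 0.509). Mrpl16, which encodes a protein near the peptidyl transferase centre, read 132 and 132 against 169 and 152, at -0.28, and -0.48 with normexp. Mrpl30 read 1256 and 1323 against 1501 and 1754, at -0.33, with wild-type replicate 2 the highest array. Mrps21 read 1656 and 1511 against 1869 and 1878, at -0.24, with the wild-type arrays close together and the transgenic arrays apart from each other. That value was -0.31 to -0.18 with 1 array left out. Mrps16, mutated in an inherited human deficiency of mitochondrial translation, read 702 and 725 against 805 and 864, at -0.23. Mrpl13 read 389 and 370 against 433 and 433, at -0.19. Mrpl22, whose protein lines the exit tunnel, read 249 and 234 against 292 and 271, at -0.22. Mrpl1 was at -0.23, Mrpl18 at -0.24, Mrpl28 at -0.31 (-0.19 without transgenic replicate 1) and Mrps22, a mitochondrion-specific protein, at -0.18. None of these passed the test.

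The 5 brightest members, Mrpl53 among them, stood at log2 fold changes of -0.22 to -0.11. Mrpl33, the brightest, read 3918 and 3786 in transgenic and 4747 and 4188 in wild-type muscle, without overlap, at a log2 fold change of -0.21 (SE 0.08). Mrps24, the mitochondrial form of bacterial S3, read 3352 and 3501 against 3646 and 3893, at -0.14. Mrpl23 of the exit tunnel region read 2984 and 2826 against 3401 and 2887, with overlap, and its difference of -0.11 was 0.01 without wild-type replicate 1. Mrpl12, a stalk protein that also binds the mitochondrial RNA polymerase, read 2060 and 2421 against 2307 and 2605, at -0.13 with overlap, and at -0.25 to -0.018 with 1 array left out. Intensities are not compared between genes, since each probe has its own response.

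**Figure D2:**
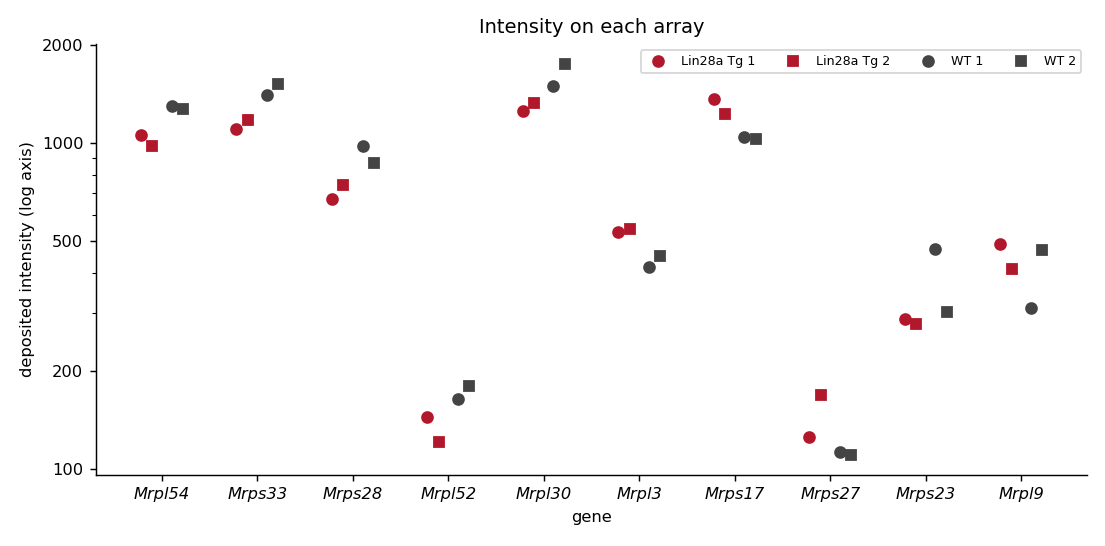
Deposited intensity (vertical log axis) of 10 mitochondrial ribosomal protein genes on each array, with red for Lin28a transgenic, grey for wild type, circles for replicate 1 and squares for replicate 2. The red points of Mrpl54, Mrps33, Mrps28, Mrpl52 and Mrpl30 lie below the grey ones and those of Mrpl3, Mrps17 and Mrps27 above, whereas Mrps23 is set apart by wild-type replicate 1 at 473 and Mrpl9 overlaps.

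A smaller number of members lay higher in transgenic muscle. Mrpl3, whose protein reaches towards the peptidyl transferase centre, read 535 and 543 in transgenic and 418 and 451 in wild-type muscle. The groups did not overlap, and the log2 fold change was 0.31 (SE 0.07, limma adjusted p = 0.492). Mrps17, an RNA-binding protein of the small subunit, read 1367 and 1230 against 1047 and 1032, at 0.32 (SE 0.08, adjusted p = 0.508). Mrps27, which encodes a pentatricopeptide-repeat protein, had the highest fold change of the 65, at 0.38 (SE 0.16). It read 125 and 168 against 113 and 110, so transgenic replicate 2 carried most of the difference, which was 0.17 without that array and 0.59 without transgenic replicate 1. Mrps9 was at 0.17, Mrpl37 at 0.13 and Mrps25 at 0.07, each without overlap between the groups. Mrpl35 was at 0.12, Mrps11 at 0.09 and Mrpl9 at 0.23, each with overlap. Mrpl9 read 489 and 410 against 311 and 469, and without wild-type replicate 1 its value was -0.07.

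Wild-type replicate 1 also decided the lowest value of the set. Mrps23 read 289 and 277 in transgenic muscle, and 473 and 303 in wild-type muscle. Its log2 fold change of -0.42 (SE 0.23) was -0.10 with wild-type replicate 1 left out and -0.74 with the other wild-type array left out.

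The 3 paralogs of the S18 protein did not share a direction. Mrps18b read 384 and 376 in transgenic and 337 and 339 in wild-type muscle, higher without overlap, at 0.17 (SE 0.06). Mrps18c read 212 and 216 against 236 and 245, lower without overlap, at -0.17 (SE 0.06). Mrps18a, whose protein lies in the large subunit in mammals despite its name, read 672 and 749 against 708 and 797, with overlap, at -0.08 (SE 0.10), and 0.00 without wild-type replicate 2. The limma adjusted p was 0.543 for Mrps18b and 0.544 for Mrps18c, so neither passed, and the difference between paralogs was not tested.

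The remaining members are given by class, with the subunit taken from the symbol. The large-subunit members that lay lower without overlap were Mrpl1, Mrpl2, Mrpl11, Mrpl13, Mrpl14, Mrpl16, Mrpl18, Mrpl20, Mrpl22, Mrpl28, Mrpl30, Mrpl33, Mrpl43, Mrpl52, Mrpl53 and Mrpl54. The small-subunit members that did so were Mrps2, Mrps7, Mrps10, Mrps15, Mrps16, Mrps18c, Mrps21, Mrps22, Mrps23, Mrps24, Mrps26, Mrps28, Mrps30, Mrps33 and Mrps35. The log2 fold changes of these 31 ran from -0.42 to -0.07. The groups overlapped for 27 members, at -0.19 to 0.23. These were Mrpl4, Mrpl9, Mrpl10, Mrpl12, Mrpl17, Mrpl23, Mrpl24, Mrpl27, Mrpl34, Mrpl35, Mrpl36, Mrpl38, Mrpl40, Mrpl46, Mrpl47, Mrpl48, Mrpl49, Mrpl50, Mrpl51, Mrpl55, Mrps5, Mrps6, Mrps11, Mrps12, Mrps18a, Mrps31 and Mrps34. Among them Mrpl17 read 972, 1005, 983 and 984 over the 4 arrays and Mrps12, of the decoding centre, 1693, 1838, 1812 and 1854, so neither showed a difference beyond the spread. The 7 members not above background on 2 or more arrays were Mrpl15, Mrpl19, Mrpl21, Mrpl32, Mrpl39, Mrpl45 and Mrps14, at 79.2 to 90.6. No fold is given for them, and only Mrpl32 exceeded 90.0, on transgenic replicate 1.

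Sorted by the subunit in the symbol, both classes had nearly the same median. Mrps30 and Mrps18a are counted as small here, though their proteins lie in the large subunit. Over all genes tested 46.6% were negative, 16.8% lower and 21.6% higher without overlap, which is the background for the counts that follow. Large-subunit members had a median log2 fold change of -0.11 (38 tested, 29 negative, 16 lower and 2 higher without overlap). Small-subunit members had one of -0.12 (27 tested, 20 negative, 15 lower and 5 higher without overlap). Members with a bacterial counterpart stood at -0.13 (43 tested, 33 negative) and mitochondrion-specific ones at -0.06 (22 tested, 16 negative), while the quartiles of the classes ran from -0.20 to -0.04 and from -0.24 to 0.03. Split by mean intensity, the 21 dimmest had a median of -0.12, the next 22 one of -0.06 and the 22 brightest one of -0.14.

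Array by array, the members' median deviation from their means over the 4 arrays was -0.08 and -0.03 on the log2 scale in the transgenic and 0.05 and 0.06 in the wild-type samples. Transgenic replicate 1 was the lowest array for 31 of the 65 members and transgenic replicate 2 for 18. Wild-type replicate 1 was the lowest for 11 and wild-type replicate 2 for 5. The arrays that stood apart in liver and slow-fibre transcripts are the 2 wild-type arrays. With either left out, the other is the only control, so the part of those transcripts was not tested. The median was -0.12 with the first of them left out and -0.11 with the second. With those arrays left out in turn, 41 members (34.0% of all genes) and 35 members (30.0%) lay lower without overlap.

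**Figure D3:**
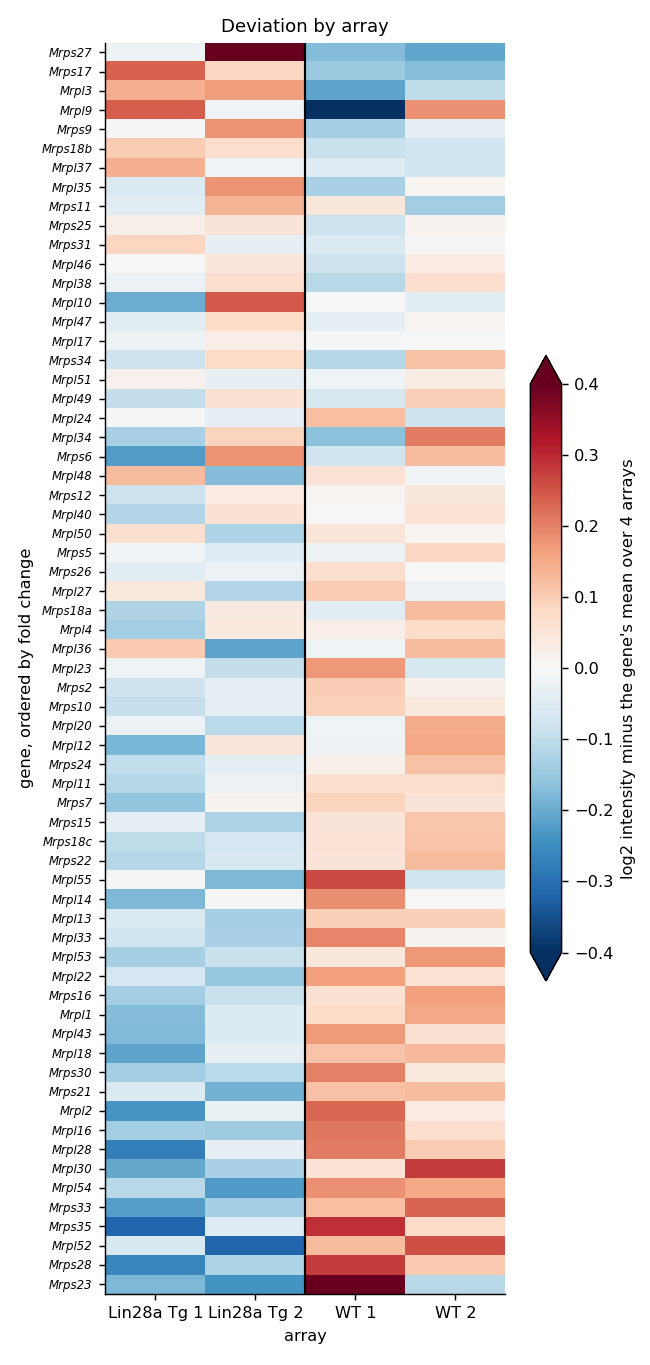
Deviation of each of the 65 genes from its own mean over the 4 arrays (colour, log2 scale, red above and blue below the mean), with arrays in columns and genes in rows ordered by fold change. Most of the lower rows are blue on both transgenic arrays and red on both wild-type arrays. The bottom row, Mrps23, is red on wild-type replicate 1 alone. Transgenic replicate 1 is the lowest array for 31 of the 65 genes.

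Other cell types were followed through their markers, and their part in the result was not tested. Sums are given with the lower array of each group first. The summed intensity of 12 muscle fibre markers was 157324 and 164014 in transgenic and 156503 and 162558 in wild-type samples, so it overlapped between the groups. For 8 adipocyte markers it was 7159 and 9090 against 7487 and 9202, for 6 erythroid markers 27563 and 34722 against 23113 and 34560, and for 6 endothelial markers 937 and 938 against 839 and 994. These overlapped too. For 9 macrophage markers it was 2848 and 3137 against 2517 and 2795, and for 6 fibroblast markers 7141 and 7853 against 6517 and 7332, so the macrophage sums did not overlap. The macrophage genes C1qb (0.35), Cd68 (0.23) and Mrc1 (0.21) lay higher without overlap, and the other 6 overlapped. Among the fibroblast genes, Col1a1 read 1949 and 2010 against 1044 and 1243 (log2 fold change 0.80) and Col3a1 was at 0.40, both higher without overlap, while Dcn, the brightest, was at -0.18 with overlap. The adipocyte sum is mostly Cfd, at 0.02. Of 6 adipocyte genes tested 5 were negative, at a median of -0.21, which was 0.02 without transgenic replicate 1. Cidec (-0.32) lay lower without overlap, whereas Lep (-0.69) and Adipoq (-0.44) overlapped. Above background on 2 or more arrays were 12 of 12 muscle fibre, 6 of 8 adipocyte and 5 of 6 erythroid genes. So were 6 of 6 endothelial, 9 of 9 macrophage, 6 of 6 fibroblast, 7 of 9 slow-fibre and 5 of 12 hepatocyte genes. The hepatocyte genes Apoa2 (5506), Ambp (1847), Ttr (1746) and Ahsg (665) were above it on wild-type replicate 1 alone. No marker is listed at 0, since background was not subtracted.

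Related gene lists give the setting on the same arrays, and their counts without overlap are read against the 16.8% lower and 21.6% higher of all genes tested. Complex I of the respiratory chain, which contains products of mitochondrial translation, had a median log2 fold change of -0.16 (32 tested, 29 negative, 16 lower and 1 higher without overlap). With 1 array left out it ran from -0.22 (wild-type replicate 1 out) to -0.105 (wild-type replicate 2 out). Complexes II to V had a median of -0.12 (37 tested, 28 negative, 19 lower and 3 higher), and of -0.14 to -0.076 with 1 array left out. Proteins of the cytosolic ribosome had a median of 0.03 (52 tested, 24 negative, 9 lower and 7 higher), and of -0.02 or -0.01 when transgenic replicate 1 or wild-type replicate 2 was left out. All lists share the same 4 arrays, no list was tested against another, and no gene in any of them passed limma's test.

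Genes that assist mitochondrial translation were taken as 5 lists, whose median log2 fold changes lay between -0.04 and 0.06. Many of these genes were dim, so their folds are understated by the background left in. With normexp at an offset of 16 the medians were -0.09 for ribosomal proteins under other names, 0.01 for translation factors and 0.10 for assembly genes. They were 0.10 for synthetases and -0.02 for mitochondrial DNA transcription and RNA processing. Of 5 tested genes of proteins that belong to or act at this ribosome under other names, Aurkaip1, a small-subunit protein, read 1534 and 1550 in transgenic and 1781 and 1924 in wild-type muscle, lower without overlap at -0.26 (SE 0.07, limma adjusted p = 0.509). Ptcd3, a pentatricopeptide-repeat protein of the small subunit, was at -0.04 and Chchd1 at -0.09. The other 2 genes of that list, Dap3 and Gadd45gip1, were at 0.02 each, and the list's median of -0.04 was 0.03 without transgenic replicate 1. Translation factors had a median of 0.00 (9 tested, 4 negative, 3 lower and 3 higher without overlap, against 16.8% and 21.6% of all genes), which was -0.01 to 0.03 with 1 array left out. The initiation factor Mtif3 read 141 and 137 against 106 and 116, at 0.32. The recycling factor Gfm2 was at 0.19, and Mtrf1, of the release factor family, at -0.13.

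The median log2 fold change of ribosome assembly and rRNA modification genes was 0.06 (17 tested, 11 positive, 5 higher and 0 lower without overlap). The small-subunit maturation factor Rbfa read 308 and 299 in transgenic and 252 and 248 in wild-type muscle, at 0.28 (SE 0.06, limma adjusted p = 0.482). The rRNA methyltransferase Nsun4 read 588 and 576 against 489 and 475, at 0.27 (SE 0.06, adjusted p = 0.482), and the assembly GTPase Noa1 was at 0.15. The list of mitochondrial aminoacyl-tRNA synthetases, which includes the amidotransferase genes Qrsl1, Gatb and Gatc, also had a median of 0.06. Of 15 tested, 13 were positive, and 8 lay higher and 1 (Gatc) lower without overlap, where 21.6% and 16.8% of all genes did. With 1 array left out the median was 0.02 to 0.10 for the assembly list and 0.05 to 0.07 for the synthetases. Gars1, which serves both the cytosol and mitochondria, read 2176 and 2134 against 1861 and 1641, at 0.30 (SE 0.08). Iars2 read 180 and 169 against 141 and 154, at 0.24. None of these genes passed the test. Genes of mitochondrial DNA transcription and RNA processing had a median of -0.01 (18 tested, 10 negative, 8 positive, 4 lower and 1 higher without overlap). That median was 0.01 without wild-type replicate 2. The RNA-binding protein Grsf1 was at -0.34 (-0.15 without transgenic replicate 1) and Slirp at -0.13 (-0.053 without transgenic replicate 2), both lower without overlap. Hsd17b10 was at -0.31 with overlap, and at -0.047 without wild-type replicate 2. Nuclear regulators of mitochondrial genes had one of 0.01 (5 tested), with Esrra at -0.11, Ppargc1b at 0.12, Gabpb1 at -0.05 and no gene without overlap.

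**Figure D4:**
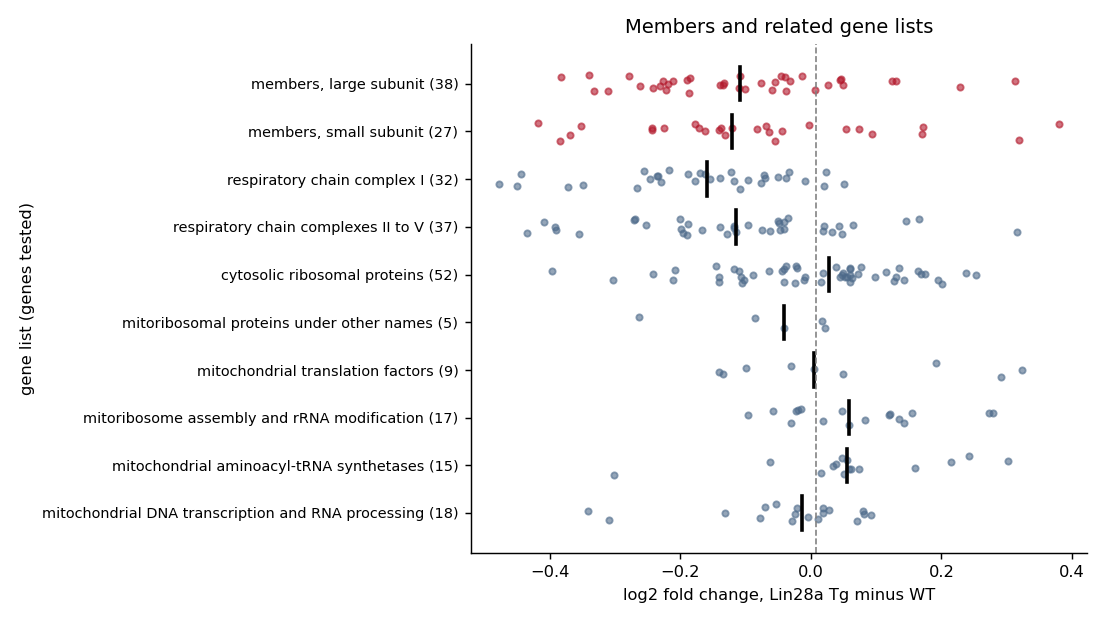
Log2 fold change (horizontal axis) of each gene tested in the members and the related lists (rows, number of genes in parentheses), with a black bar at each list's median and a dashed line at the median of all genes tested. The medians of the members (-0.11 and -0.12) and of the respiratory chain (-0.16 and -0.12) lie left of the line, and those of assembly factors and synthetases (0.06 each) lie right of it.

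Features of the members' promoters that the choice by symbol did not use were counted, and no motif was held by most of them. RefSeq promoter windows on GRCm38.p6, 250 bases before to 50 after the start, were matched by symbol for 63 of the 72 genes, in 69 windows. They held a median of 22 CpG dinucleotides, against 20 in windows of the genes tested and 7 in all windows. The letters CCGGAAG, a core of the ETS factors that include GABPA, occurred on either strand in 24 of the 69 windows (34.8%), against 8.86% of all 32851 windows. Among genes tested they occurred in 35.9% of 64 member windows and 17.1% of all windows. The letters AANATGGC, read by YY1, occurred in 27.5% of member windows against 6.05% of all, and among genes tested in 26.6% against 8.16%. The core of the NRF-1 site, with any base at 1 inner position, occurred in 15.9% against 4.6%, and among genes tested in 12.5% (8 windows) against 9.62%. No motif contains another. A match describes the sequence only.

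To show what such a promoter looks like, the 250 bases before the start are printed for 5 members described above, 5′ to 3′, with the NRF-1 letters in capitals in Mrpl30 and Mrps21 and the ETS letters, on either strand, in capitals in Mrpl52, Mrps18c and Mrpl3. The first 4 genes lay lower and Mrpl3 higher in transgenic muscle.
Mrpl30, chr1:37890227-37890476, plus strand: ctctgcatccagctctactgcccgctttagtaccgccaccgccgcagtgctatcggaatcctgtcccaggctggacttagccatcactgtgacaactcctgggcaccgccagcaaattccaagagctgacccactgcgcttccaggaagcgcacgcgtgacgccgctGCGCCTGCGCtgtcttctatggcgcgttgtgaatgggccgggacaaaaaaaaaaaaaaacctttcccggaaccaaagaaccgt
Mrps21, chr3:95871515-95871764, minus strand: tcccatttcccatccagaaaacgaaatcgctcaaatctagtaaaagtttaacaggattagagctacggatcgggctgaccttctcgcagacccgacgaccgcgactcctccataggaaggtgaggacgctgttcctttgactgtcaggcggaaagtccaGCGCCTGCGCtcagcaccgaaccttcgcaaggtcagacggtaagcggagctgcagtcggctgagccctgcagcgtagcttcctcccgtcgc
Mrpl52, chr14:54426659-54426908, plus strand: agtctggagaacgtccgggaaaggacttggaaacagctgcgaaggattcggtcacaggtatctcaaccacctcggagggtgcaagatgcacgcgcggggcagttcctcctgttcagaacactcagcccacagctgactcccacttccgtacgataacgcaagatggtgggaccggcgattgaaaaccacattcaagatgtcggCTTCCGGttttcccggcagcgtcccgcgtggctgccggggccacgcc
Mrps18c, chr5:100798509-100798758, plus strand: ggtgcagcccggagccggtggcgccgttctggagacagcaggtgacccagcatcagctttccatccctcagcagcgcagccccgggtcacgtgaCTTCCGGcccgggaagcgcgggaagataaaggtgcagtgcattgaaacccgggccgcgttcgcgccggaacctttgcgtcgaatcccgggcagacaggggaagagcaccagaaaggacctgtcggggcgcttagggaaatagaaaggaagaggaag
Mrpl3, chr9:105053018-105053267, plus strand: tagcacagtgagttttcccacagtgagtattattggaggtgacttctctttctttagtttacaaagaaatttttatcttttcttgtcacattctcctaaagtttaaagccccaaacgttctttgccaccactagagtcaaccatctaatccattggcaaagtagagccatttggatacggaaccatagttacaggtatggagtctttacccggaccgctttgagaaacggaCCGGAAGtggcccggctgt

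Members with and without each motif are set side by side, with no test of the difference. The counts lower without overlap are read against 16.8% of all genes tested. With the ETS letters the median log2 fold change was -0.17 (23 tested, 13 lower without overlap) and without them -0.11 (35 tested, 14 lower). With the YY1 letters it was -0.06 (17 tested, 5 lower) and without them -0.13 (41 tested, 22 lower). With the NRF-1 core it was -0.10 (8 tested, 4 lower) and without it -0.11 (50 tested, 23 lower).

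Many members face another gene head to head. Of 63 members, 22 (34.9%) had the start of a protein-coding gene on the opposite strand within 1000 bases upstream, against 8.48% of 17492 protein-coding genes. Those 17492 include many genes not tested here, and no share was computed over the genes tested alone. Of the 13 neighbours that were tested together with their member, 7 had a negative and 6 a positive log2 fold change. Over all genes tested 46.6% were negative, and of the 13 members in these pairs 8 were. Mrpl46 and Mrps11 are both members, and each is counted as the neighbour of the other. Mrpl47 and Ndufb5, a complex I subunit, start 308 bases apart, and Mrpl47 was at 0.03 while Ndufb5 was at -0.48 (SE 0.08, limma adjusted p = 0.482). Mrpl43 faces Twnk, the mitochondrial DNA helicase, and the pair stood at -0.23 and -0.02. Mrps12 faces the mitochondrial seryl-tRNA synthetase Sars2, at -0.06 and 0.04. Mrpl46 and Mrps11 face each other across 42 bases and were at 0.05 and 0.09.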

How the data were processed

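Total RNA of 4 mouse quadriceps was made into biotin-labelled cRNA for Illumina Ref-8 arrays, according to the labels. The table that the authors deposited holds linear intensities with 1 row per symbol. Its ranked values differ between arrays by a median of 0.092%, so it had been normalized, and its lowest value of 72.8 shows that background was left in. The software used is not given in the sources used here. Another table with 8 value columns was left out, because their names match no label.

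Of 18091 rows, 14090 symbols are current in RefSeq and 3066 were matched through an older name, 50 matched several genes and 885 none. The brightest row per symbol was kept. Background was the mode of all log2 values (84.8, SD 0.05), and genes above the mode plus 1.645 SD (90.0) on at least 2 arrays were tested. The mode stands for background only where unexpressed genes are common. Log2 intensities were fitted over all genes with limma 3.58.1 (lmFit, then eBayes; R 4.3.3), group being the only term, with Benjamini-Hochberg adjustment. The fit was tested on simulated data with changes larger than that of any member, and smaller changes were not simulated. Alternatives were another scale, normexp, filters, centring, all rows, a trended prior, the replicate block and each array left out. Python 3.11.15 with pandas 2.3.3 made the counts. The members and lists were chosen with earlier results of these data known. Named with values were the 10 members with the smallest p in each direction, the 5 brightest, the S18 paralogs, the 5 with the widest range and up to 3 genes per related list, and other members were named afterwards to account for all of them. Mitochondrion-specific and bacterial classes were assigned by hand after the values were seen. The 5 promoters shown were chosen after the values were seen.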

Additional observations from a re-analysis of the deposited data

How the results depend on the processing

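Of 13 alternatives, none brought a member past an adjusted p of 0.05. The 31 members lower without overlap were 29 to 33 under the other scales, filters and background corrections, and 35 to 41 with 1 array left out, when the share of all genes also grew, to between 30.0% and 34.0%. The 7 higher without overlap were 9 to 16 with 1 array left out, against 35.6% to 39.7% of all genes. The 19 members lower at limma's unadjusted p under 0.05 were 7 with normexp at an offset of 16 (3.15% of all genes). They were 8 with eBayes with trend and robust (3.34%), and the cause of neither drop was tested. The samples share only a replicate number (the deviations of same-numbered arrays correlated at 0.04 over genes). With it as a block 12 members were lower, against 3.49% of all genes. The 3 higher at that p were 2 or 3 under the alternatives that kept all 4 arrays, against 3.61% to 5.60% of all genes. The median of -0.11 was -0.14 with normexp at an offset of 16, -0.079 over all 72 genes without a filter, and -0.15 to -0.10 with 1 array left out. Of 377 values of the 29 members named by the rule under the alternatives 3 turned sign. With 1 array left out, Mrpl23 ran from -0.23 to 0.0087 and Mrpl9 from -0.068 to 0.52, both turning without wild-type replicate 1, and Mrps18a ran from -0.17 to 0.0022, turning without wild-type replicate 2. Over all 65 tested, the sign held with each array left out for 35 of the 49 lower and 9 of the 16 higher members, for 31 and 7 of them because their groups do not overlap. Among other members given values, Mrps12 turned to 0.0037 without transgenic replicate 1, Mrpl17 to -0.018 and Mrpl47 to -0.033 without transgenic replicate 2, and Mrpl46 to -0.0077 without wild-type replicate 1. Signal near background limits the 10 members with a mean intensity under 150. The count of groups without overlap does not depend on the variance prior or the block.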
